A study of Mus musculus with 35 samples.

Results

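Skin that had been irradiated 3 weeks earlier was compared with skin of mice that were never irradiated, across all genes of the table. The comparison holds 7 of the 35 libraries of the study: 4 of radiated skin at week 3 and 3 of sham skin, chosen by their labels alone. All mice were female C57BL/6J, a widely used inbred strain with black hair, labelled 10 weeks old and without a genetic alteration named in the labels. The same age is given at every week, so it cannot be the age at collection in all groups. The labels give no week of collection for sham skin, so a difference in age or hair cycle between the groups was not tested. The radiated mice received 25 Gy to the left flank, given at 3.6 Gy per min over 420 s, and their skin was shaved with an electric razor afterwards. The sham mice received no radiation, and the labels do not say whether their skin was shaved. Besides these, 4 libraries labelled control skin of week 3 and 4 libraries of radiated skin at week 4 are used below for reference. Where on the mouse this control skin lay is not given. The design text divides 19 mice into 5 groups, so that control and radiated skin of 1 week most probably come from the same mice. All samples were bulk skin biopsies, kept in RNAlater, and the p-values measure the spread between these samples only.

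A single large dose of ionizing radiation damages the dividing cells of the epidermis and of the growing hair follicle, and after a delay the skin becomes red, scales, loses hair and may ulcerate, a condition called radiation dermatitis. Injured keratinocytes, the cells of the epidermis, switch from the keratins of normal differentiation to a wound program of keratins 6, 16 and 17 and of alarmins, which are proteins that call in immune cells. Neutrophils and macrophages enter such skin, fibroblasts lay down collagen and provisional matrix, and matrix metalloproteinases cut it.

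The 7 libraries held 17362853 to 25942860 estimated counts each, and 3 counts were 0.1156 to 0.1728 per 1000000 counts. Levels below are counts per 1000000 (CPM) of a library size scaled by TMM, edgeR's correction for composition. Ratios given with a counting interval or as a lower bound come instead from summed counts over library totals without this scaling. Genes that define skin were present in every library: the summed level of the keratinocyte markers was 7386 to 14410 CPM in sham and 5223 to 22890 CPM in radiated skin, and that of the fibroblast markers 3451 to 7977 and 6862 to 13830 CPM. The pan-leukocyte gene Ptprc stood at 37.9 to 67.5 CPM in sham and 167 to 410 CPM in radiated skin. The skeletal muscle markers, from the muscle layer under the skin, summed to 867 to 1964 CPM in sham and 441 to 2162 CPM in radiated skin, so all biopsies held muscle in varying amount. The melanocyte markers summed to 25.1 to 150.9 and 9.19 to 36.3 CPM, and the Schwann cell markers to 42.1 to 121 and 46.2 to 90.1 CPM. In bulk RNA, fewer cells of a type and less RNA per cell cannot be told apart. The labels name no batch or date.

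Because chemokines, cornified-envelope genes, matrix metalloproteinases and interferon-stimulated genes are among the genes described below, the 250 bases before the start of 6 of them are shown first. They are RefSeq sequences of build GRCm38.p6, printed 5′ to 3′ in the direction of the gene, with the motif found in capitals. Cxcl1 (chr5:90890995-90891244, plus strand) and Cxcl2 (chr5:90903649-90903898, plus strand) encode neutrophil-attracting chemokines, and the capitals mark matches on either strand to the NF-kappaB motif, searched as GGG, any 2 bases and TTTCC. Sprr1b (chr3:92438780-92439029, minus strand) encodes a cornified-envelope protein, and Mmp3 (chr9:7445572-7445821, plus strand) and Mmp13 (chr9:7272264-7272513, plus strand) encode metalloproteinases. In these 3 the capitals mark the AP-1 motif TGANTCA, which is its own reverse complement. Rsad2 (chr12:26456453-26456702, minus strand) is an antiviral gene, and the capitals mark an interferon response element, searched on both strands as TTTC, any 2 bases and TTTC.
Cxcl1: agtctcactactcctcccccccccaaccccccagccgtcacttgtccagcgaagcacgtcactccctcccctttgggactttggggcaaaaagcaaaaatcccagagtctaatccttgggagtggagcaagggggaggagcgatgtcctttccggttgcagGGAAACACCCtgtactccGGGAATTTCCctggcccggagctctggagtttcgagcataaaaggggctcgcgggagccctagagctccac
Cxcl2: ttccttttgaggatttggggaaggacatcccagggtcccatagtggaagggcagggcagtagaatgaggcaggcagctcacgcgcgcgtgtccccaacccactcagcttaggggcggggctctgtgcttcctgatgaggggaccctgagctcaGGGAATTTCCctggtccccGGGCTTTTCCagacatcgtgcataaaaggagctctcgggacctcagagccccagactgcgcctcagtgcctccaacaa
Sprr1b: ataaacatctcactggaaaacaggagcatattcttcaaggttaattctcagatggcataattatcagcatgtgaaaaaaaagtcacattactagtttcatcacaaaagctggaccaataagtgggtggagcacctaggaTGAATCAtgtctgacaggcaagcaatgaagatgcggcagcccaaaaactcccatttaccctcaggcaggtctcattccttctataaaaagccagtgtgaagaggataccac
Mmp3: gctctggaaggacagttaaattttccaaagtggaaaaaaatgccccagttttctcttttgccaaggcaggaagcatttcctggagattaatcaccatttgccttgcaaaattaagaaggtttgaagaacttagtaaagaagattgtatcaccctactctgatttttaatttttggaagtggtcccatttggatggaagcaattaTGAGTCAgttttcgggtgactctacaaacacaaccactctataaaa
Mmp13: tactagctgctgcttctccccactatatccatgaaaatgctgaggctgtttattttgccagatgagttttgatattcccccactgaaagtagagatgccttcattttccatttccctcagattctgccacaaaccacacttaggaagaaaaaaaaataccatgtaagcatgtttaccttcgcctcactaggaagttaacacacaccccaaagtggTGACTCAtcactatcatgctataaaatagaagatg
Rsad2: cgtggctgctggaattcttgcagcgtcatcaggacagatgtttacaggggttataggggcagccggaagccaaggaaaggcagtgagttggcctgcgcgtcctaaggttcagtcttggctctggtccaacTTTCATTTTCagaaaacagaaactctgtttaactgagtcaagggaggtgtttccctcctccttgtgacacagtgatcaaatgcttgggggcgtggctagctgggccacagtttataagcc

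In Cxcl1 the matches began 89 and 71 bases before the start, and in Cxcl2 97 and 78 bases before it. The AP-1 match began 111 bases before the start in Sprr1b, 46 in Mmp3 and 35 in Mmp13. The interferon response element began 120 bases before the start of Rsad2, whose window also held an AP-1 match, TGAGTCA, at 87 bases, and the window of Mmp13 also held an interferon response element, TTTCCATTTC, at 146 bases. No matches of different motifs overlapped in these windows. Of all 32851 such windows of 27025 genes, 6.75% held the AP-1 motif, 1.41% the NF-kappaB motif and 2.98% the interferon response element. A window was present for 1379 of the 1895 symbols higher in radiated skin, for 1062 of the 1410 lower and for 10765 of the 14900 that did not pass the test. The AP-1 motif was in 8.68% of the windows of the higher genes, 4.90% of those of the lower genes and 5.30% of the rest. The corresponding shares were 2.5%, 1.39% and 1.34% for the NF-kappaB motif and 4.48%, 1.68% and 2.71% for the interferon response element. In 4 lists the genes with a window were searched one by one, 25 of 35 cytokine genes, 14 of 18 metalloproteinase genes, 15 of 21 wound genes and 19 of 25 interferon-stimulated genes, and the others were not searched. NF-kappaB matches were found at 6 cytokine genes, Cxcl1, Cxcl2, Cxcl3, Ccl20, Il6 and Il1rn. AP-1 matches were spread over all 4 lists, at the metalloproteinase genes Mmp1a, Mmp3, Mmp10, Mmp12 and Mmp13, the wound genes Sprr1a, Sprr1b, Sprr2d, Sprr2h and Il1f8, the interferon-stimulated genes Gbp2, Ifit3, Oas3, Rsad2 and Xaf1, and the cytokine genes Cxcl10, Il17a, Il1a, Il1rn, Il6 and Ccl27a, the last of which fell. Interferon response elements were found at Bst2, Gbp2, Ifit1, Ifit3, Isg15, Oas1a, Oas3, Rsad2 and Stat2, and outside the interferon-stimulated list at Cxcl10, Cxcl14, Il19 and Mmp13. These are letter matches within the windows, given as a description, and no binding was measured.

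Of 18220 genes tested, 3308 (18.2%) differed between radiated and sham skin at an adjusted p under 0.05 in edgeR's quasi-likelihood test with Benjamini-Hochberg adjustment, which is the test behind every adjusted p below. The genes higher in radiated skin were 10.4% and those lower 7.75% of all tested, and the median log2 fold change over all tested genes was 0.03. The median size of the change was 1.80 on the log2 scale among the higher genes and 1.34 among the lower ones, and a change of at least 3 was seen in 378 higher and 197 lower genes. In 15.6% of all tested genes every radiated library lay above every sham library, and in 18.1% every radiated library lay below. The genes nearest the threshold were H2ac18 (log2 fold change -0.71) and 6720489N17Rik (-2.19), both just inside, and Epn2 (-0.59) and Slc9a7 (0.76), both just outside. The number of genes passing fell to 1134 when sham replicate 2 was left out, of which 816 were higher and 318 lower, and lay at 1977 without sham replicate 1, 1804 without sham replicate 3 and 2100 without radiated replicate 2. Of the 270 listed or named genes that passed, 155 missed the threshold without at least 1 of the 7 libraries, and those named below are given with their paragraph.

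**Figure D1:**
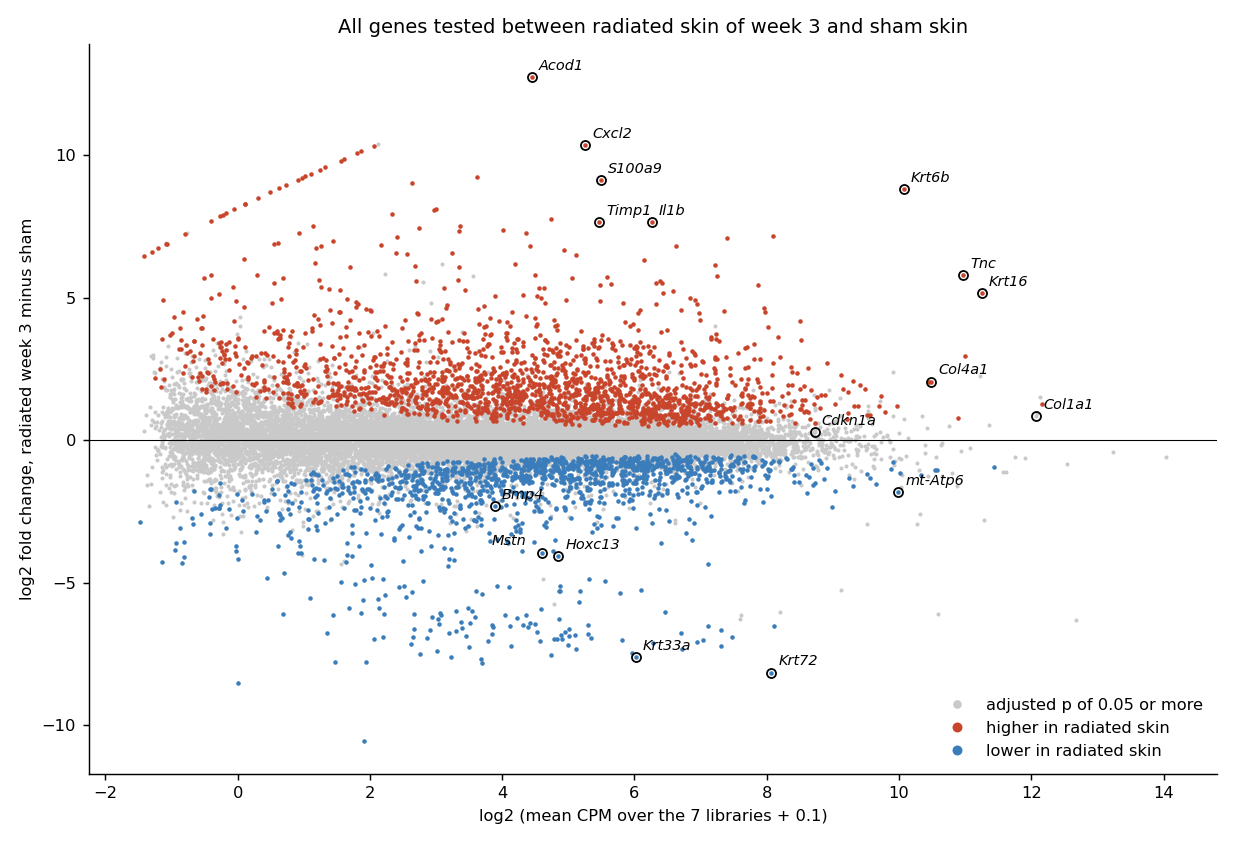
Each point is 1 of the 18220 tested genes, with the mean level over the 7 libraries on the x axis (log2 of CPM + 0.1) and the log2 fold change of radiated over sham skin on the y axis. Genes past the threshold are red (higher) or blue (lower) and some genes of the text are labelled. The straight diagonal edge at the upper left holds genes with no count in any sham library, whose fitted fold change depends on the prior count.

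The wound program of the epidermis was strongly higher in radiated skin. Of 20 measured wound keratins and alarmins, 14 rose and none fell, with a median log2 fold change of 6.16 (4.34 without radiated replicate 3) against 0.03 over all genes. Krt6b (chr15:101676023-101680287), a keratin of injured and fast-growing epidermis, stood at 3.13, 8.41 and 1.24 CPM in sham replicates 1 to 3 and at 409, 900.0, 3574 and 2635 CPM in radiated replicates 1 to 4. Every radiated library was far above every sham library, and the change was 8.81 on the log2 scale (SE 1.17, adjusted p 0.00524). Its partner Krt16 (chr11:100246091-100248902) had 20.5, 271 and 63.2 CPM in sham and 1627, 2515, 5641 and 6894 CPM in radiated skin, a change of 5.17 (SE 1.02, adjusted p 0.0136). The groups did not overlap, although sham replicate 2 stood well above the other sham libraries. Krt6a had 127.5, 883 and 264 CPM in sham and 2196, 2283, 5162 and 3355 CPM in radiated skin (log2 fold change 2.97, SE 0.689, adjusted p 0.022), again without overlap. Krt17, another keratin of this program, did not pass (-0.30, adjusted p 0.613).

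Alarmins and small proline-rich proteins were higher in radiated skin too. S100a9 (chr3:90692632-90695721), a subunit of the calcium-binding alarmin calprotectin that is abundant in neutrophils and injured keratinocytes, stood at 0.132, 0.13 and 0.155 CPM in sham and at 220.1, 33.7, 39.1 and 21.9 CPM in radiated skin (9.14, SE 1.21, adjusted p 0.00523). Its partner S100a8 had 0.441, 0.347 and 0.2065 CPM in sham and 99.5, 18.4, 19.8 and 9.71 CPM in radiated skin (6.80, SE 1.03, adjusted p 0.00686). For both subunits radiated replicate 1 was the highest library and replicate 4 the lowest radiated one, whereas Krt6b was lowest in radiated replicate 1. The part of neutrophils and of keratinocytes in these 2 values was not tested. Sprr1b, whose promoter is printed above, had 0.706, 1.26 and 4.85 CPM in sham and 76.2, 60.2, 871 and 168 CPM in radiated skin (7.09, adjusted p 0.0118), with radiated replicate 3 highest. Slpi, an inhibitor of neutrophil proteases, rose by 5.82 (adjusted p 0.00513) and Lcn2, an iron-withholding antibacterial protein, by 6.5 (adjusted p 0.0117). Late cornified envelope genes of group 3, which are known to be induced on barrier injury, rose as well: Lce3c by 7.53 and Lce3d by 6.57 (adjusted p 0.019 and 0.0248). Lce3e had 0.0441, 0 and 0 CPM in sham and 0.366, 1.91, 33.6 and 6.72 CPM in radiated skin. By summed counts over unscaled library totals this was 812 times the sham level (adjusted p 0.022). The 95% counting interval was 145 to 32100, because sham skin held so few counts. Il1f9, which encodes the epidermal cytokine IL-36 gamma, rose by 1.58 (adjusted p 0.00669). The members that did not pass, beside Krt17, were Sprr1a (0.84, adjusted p 0.578), Sprr2h (2.39, 0.117), S100a7a (-2.25, 0.093), Il1f6 (2.79, 0.121) and Il1f8 (1.02, 0.321). The count of 14 became 9 higher and 1 lower without sham replicate 1, 8 without sham replicate 2 and 7 without sham replicate 3, and Krt16 and Krt6a missed the threshold without sham replicate 3 (adjusted p 0.0519 and 0.0761), as did Lce3c, Lce3d and Lce3e without any 1 of the sham libraries (0.059 to 0.0863) and Sprr1b without sham replicate 2 (0.055). Lce3e did not enter the test without radiated replicate 2, 3 or 4, and Lce3d was at 4.34 without radiated replicate 3.

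The genes of normal epidermal differentiation gave another picture, and the radiated libraries differed widely among themselves. Of 33 measured members none rose and only Krt2, a keratin of the upper layers, fell (-1.90, adjusted p 0.0484), and the median log2 fold change was -0.41 (-0.13 without radiated replicate 1, -0.2 without radiated replicate 2 and -0.81 without radiated replicate 4). Krt10, the main keratin of suprabasal cells, had 6028, 4246 and 3072 CPM in sham and 82.7, 1348, 1156 and 5331 CPM in radiated skin (-1.12, adjusted p 0.458). Radiated replicate 1 was far below all others and replicate 4 within the sham range. Flg, which encodes filaggrin of the stratum corneum, had 799, 654 and 886 CPM in sham and 17.5, 447, 3607 and 10270 CPM in radiated skin (2.25, adjusted p 0.319). The mean log2 CPM of the list was 7.50, 7.50 and 7.36 in sham and 4.51, 6.43, 7.07 and 8.01 in radiated replicates 1 to 4. Without radiated replicate 4, 8 members passed as lower, and without radiated replicate 1 there were 1 higher and 2 lower. Krt2 missed the threshold without any 1 library but radiated replicate 4 (adjusted p 0.0725 to 0.151), with total-count scaling (0.0581) and with no filter on low counts (0.0519). The basal keratin Krt14 did not pass (1.51, adjusted p 0.0595), nor did Krt5 (-0.62, 0.29) or Krt15 (-2.93, 0.0682), a keratin of quiescent basal and follicle cells that stood at 1548 to 3018 CPM in sham and 33.3 to 602 CPM in radiated skin.

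Adhesion and growth-signal genes of migrating keratinocytes were partly higher. Of 16 hemidesmosome and migration genes 6 rose and none fell (median 0.58). Plaur, the receptor of the protease urokinase, had 3.53, 3.55 and 3.46 CPM in sham and 158, 98.3, 96.6 and 32.5 CPM in radiated skin (4.82, SE 0.527, adjusted p 0.00462). Itga5, the fibronectin receptor subunit, rose by 3.28 (SE 0.38, adjusted p 0.00462). Only 2 of the 16 passed without sham replicate 2 or sham replicate 3. Among 9 ligands of the epidermal growth factor receptor, Hbegf (2.35, adjusted p 0.00939), Areg (1.94, 0.0416) and Epgn (2.67, 0.0211) rose and Btc fell (-1.32, 0.0113), and 1 rose without sham replicate 2 or 3. Areg missed the threshold without any 1 library but radiated replicate 4 (0.0737 to 0.0934), and Epgn without sham replicate 2 or 3 (0.0739 and 0.0718).

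**Figure D2:**
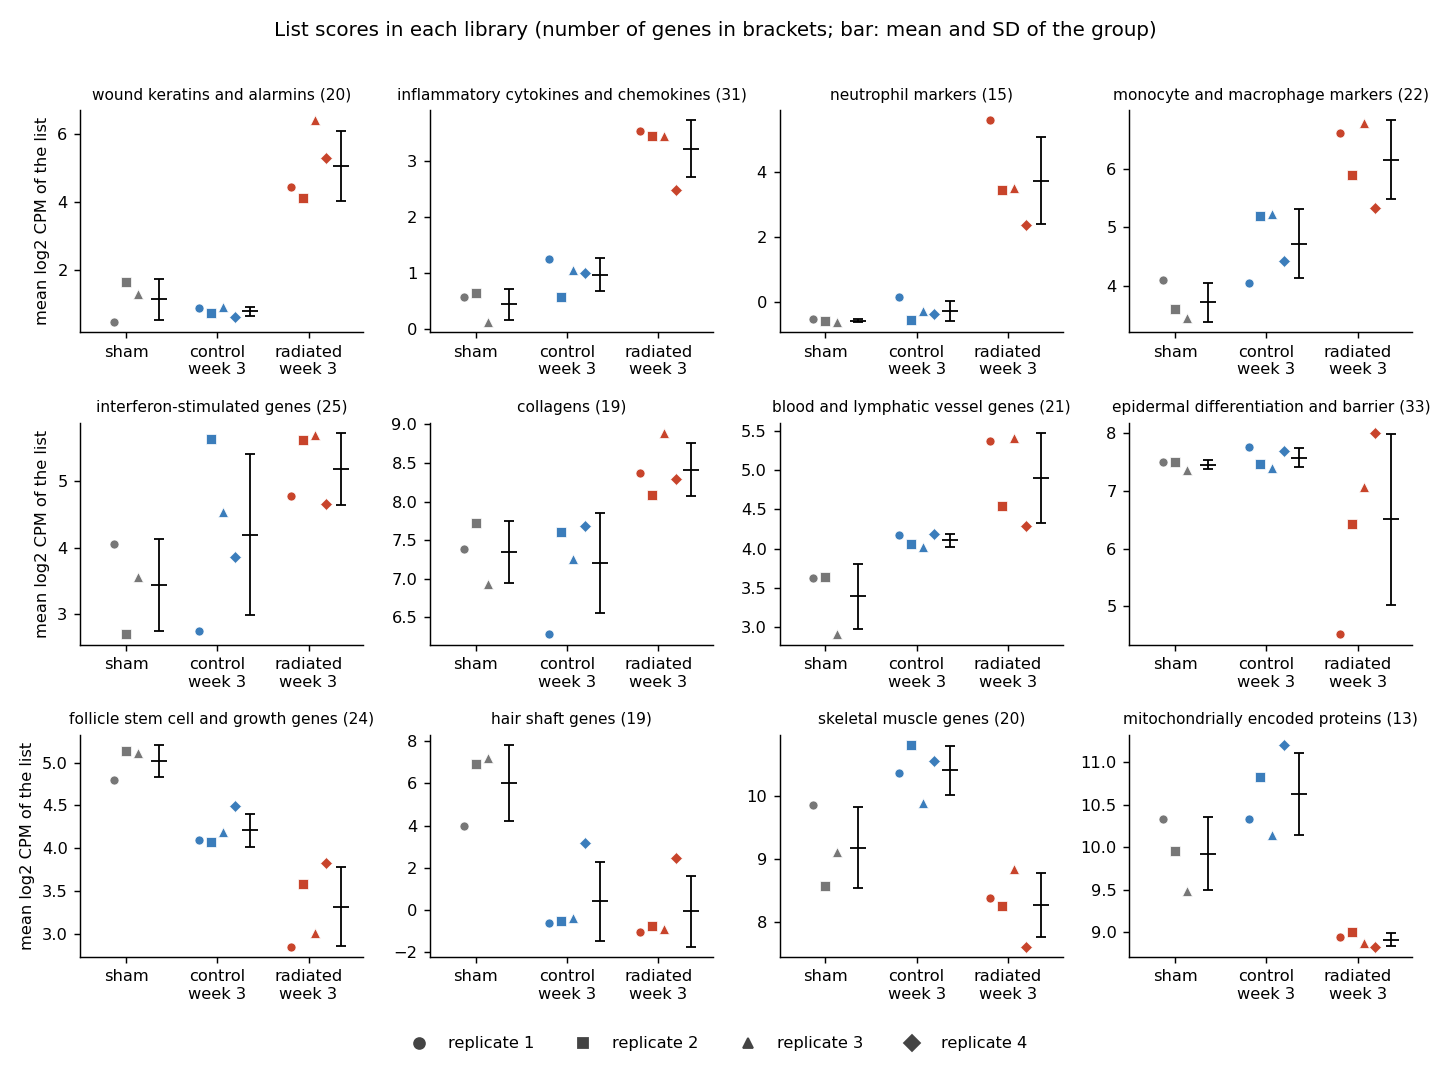
Each panel is 1 gene list and each point 1 library of sham, control week 3 or radiated week 3 skin, with the mean log2 CPM of the list on the y axis; marker shape gives the replicate and the bar the mean with its SD. The wound list lies at 0.47 to 1.64 in sham and 4.12 to 6.40 in radiated skin, while the radiated libraries of the epidermal differentiation list spread from 4.51 to 8.01 and radiated replicate 4 stands above the other radiated libraries in the hair shaft list.

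Inflammatory cytokines and chemokines were higher in radiated skin. Of 31 tested members, out of 35 listed, 20 rose and 1 fell, with a median log2 fold change of 2.76 (2.16 without radiated replicate 3). Il1b (chr2:129364570-129371139), the central inflammatory cytokine of myeloid cells, had 0.7505, 0.997 and 0.258 CPM in sham and 219.8, 174.5, 97.0 and 42.9 CPM in radiated skin (7.65, SE 0.769, adjusted p 0.00454). Cxcl2 (chr5:90903871-90905938) had 0.0883, 0 and 0.0516 CPM in sham and 106, 52.6, 81.9 and 26.1 CPM in radiated skin. By summed counts over unscaled library totals this was 1550 times the sham level, with a 95% counting interval of 529 to 7500 (adjusted p 0.00421). Neither gene overlapped between the groups, and radiated replicate 4 was lowest among the radiated libraries for both. Cxcl1, its neighbour on the chromosome, had 0.795, 1.52 and 0.671 CPM in sham and 64.8, 41.1, 17.9 and 11.8 CPM in radiated skin (5.12, SE 0.717, adjusted p 0.00573). Il6 rose by 7.38 (SE 0.964, adjusted p 0.0051), and Osm, another cytokine of the same receptor family, by 5.64 (adjusted p 0.00669).

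Csf3, the growth factor that drives neutrophil production, had no count in any sham library and 11.7, 4.94, 9.59 and 2.30 CPM in radiated skin. By summed counts over unscaled library totals it was at least 167-fold higher, against a floor of 3 counts over the sham group (adjusted p 0.00616). On the same floor Il24 was at least 93.4-fold and Ccl4 at least 75.6-fold higher. Ccl2, which attracts monocytes, rose by 3.61 (adjusted p 0.0104), and the alarm cytokines of barrier cells Il33 and Tslp rose by 2.31 and 3.26. Ccl27a, the chemokine of resting keratinocytes that attracts skin T cells, was the member that fell, from 54.7, 79.9 and 38.3 CPM in sham to 7.68, 10.8, 3.96 and 20.8 CPM in radiated skin (-2.38, adjusted p 0.0176). Il1a did not pass (-0.09, adjusted p 0.846), and Il17a and Il22 had no count in any of the 7 libraries. The median was the same, 2.76, with the 3 genes absent from sham skin set at their bounds. The count of 20 was 12 without sham replicate 2, and in that fit Il33 (adjusted p 0.054), Ccl27a (0.0657) and Tslp (0.0826) missed the threshold. Tslp also missed it without sham replicate 3 (0.0672) or radiated replicate 2 (0.0501).

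The genes of neutrophils moved with these cytokines. Of 15 tested neutrophil genes, out of 19 listed, 12 rose and none fell, with a median log2 fold change of 6.31, or 6.2 with the 2 genes absent from sham skin at their bounds. The median was 4.5 without radiated replicate 1. Csf3r, the receptor of the growth factor above, had 2.12, 1.43 and 1.19 CPM in sham and 174, 85.1, 195 and 36.5 CPM in radiated skin (6.31, adjusted p 0.00462). The groups were far apart, with radiated replicate 4 lowest of the radiated ones. Retnlg had 79.0 CPM in radiated replicate 1 and 2.38, 3.01 and 0.829 CPM in the other radiated libraries, and its ratio to sham was 706 with a counting interval of 195 to 5840 (adjusted p 0.0301). Clec4d rose by 7.78 and Trem1 by 7.27, both receptors that activate myeloid cells, and the chemokine receptor Cxcr2 by 3.55 (adjusted p 0.00813). Mpo, an enzyme of neutrophil granules, did not pass (-0.51, adjusted p 0.459), nor did the granule protein gene Ngp (6.2, adjusted p 0.0746), which reached 56.2 CPM in radiated replicate 1. Ly6g, the classical surface marker of mouse neutrophils, had no count in sham skin and 8.32 CPM in radiated replicate 1, against 0, 0.190 and 0 in the others. The log2 fold change of Retnlg was 5.89 without radiated replicate 1, against 9.25 with it. Retnlg missed the threshold without any 1 of the sham libraries (adjusted p 0.0943 to 0.103).

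Macrophage genes were higher as well: 18 of 22 rose and none fell (median 2.73), and 15 to 19 rose whichever library was left out. Cd68, a lysosomal protein of phagocytes, had 15.1, 15.3 and 10.4 CPM in sham and 165, 87.2, 191.5 and 65.9 CPM in radiated skin (3.26, SE 0.422, adjusted p 0.0049). Cd14, the coreceptor for bacterial lipopolysaccharide, had 2.825, 2.73 and 3.72 CPM in sham and 265, 139, 128.5 and 40.1 CPM in radiated skin (5.58, adjusted p 0.00462). No radiated library reached into the sham range for either gene. Acod1 (chr14:103046977-103056573), which makes the antimicrobial metabolite itaconate in activated macrophages, had no count in sham skin and 66.0, 37.1, 30.7 and 18.0 CPM in radiated skin. By summed counts over unscaled library totals it was at least 863-fold higher, against the same floor as Csf3 (adjusted p 0.00454). The complement gene C1qa (2.84), the growth factor receptor Csf1r (2.63) and the mannose receptor Mrc1 (2.53) also rose, the last of them not without sham replicate 2 (adjusted p 0.0558). Nos2 (3.29, adjusted p 0.0727), Gpnmb (-0.95, 0.294) and Lyve1 (1.03, 0.175) did not pass.

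Lymphoid, dendritic and mast cell genes changed less uniformly. Of 16 tested T cell genes 6 rose and none fell (median 0.85). Foxp3, the factor of regulatory T cells, had 5.12, 3.55 and 5.32 CPM in sham and 7.31, 13.9, 20.3 and 9.99 CPM in radiated skin (1.52, adjusted p 0.0262), and Gzmb, a protease of cytotoxic cells, rose by 4.52 (SE 0.949, adjusted p 0.0166). The T cell receptor subunit Cd3e did not pass (-0.07, adjusted p 0.939), and the sum of Cd3e and Cd3g overlapped between the groups, at 6.09 to 14.7 CPM in sham and 3.98 to 15.2 CPM in radiated skin. No T cell gene passed without sham replicate 2, 2 without sham replicate 3 and 3 without sham replicate 1. Among 16 genes of Langerhans and dendritic cells 5 rose, among them the lymph node homing receptor Ccr7 (3.83, adjusted p 0.0268), while Cd207, the marker of Langerhans cells, was at -1.39 (adjusted p 0.266). Only 2 of them passed without radiated replicate 2 or any 1 of the sham libraries, and 3 without radiated replicate 3. Ccr7 missed the threshold in all of these (adjusted p 0.0548 to 0.0729), Foxp3 in all but the last (0.059 to 0.0987) and Gzmb without sham replicate 2 (0.0658). B cell genes were near the detection limit, with 3 of 8 tested and none passing.

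Hdc, the enzyme that makes histamine, had 3.53, 2.77 and 3.05 CPM in sham and 221, 140.2, 128 and 59.3 CPM in radiated skin (5.50, adjusted p 0.00421), so that every radiated library was well above every sham library. Other mast cell genes moved less and in both directions. The proteases Cma1 (1.84, adjusted p 0.034) and Tpsb2 (2.32) rose, the receptor Kit (-0.08) and Cpa3 (0.75) did not pass, and the receptor Mrgprb2 fell (-2.2, SE 0.433, adjusted p 0.0135). In total 4 of 11 tested mast cell genes rose and 1 fell, and 2 rose and 1 fell without radiated replicate 1 or 3 or sham replicate 1 or 3, in which Cma1 also missed the threshold (adjusted p 0.0614 to 0.0939). Tpsb2 missed it without any 1 of the sham libraries (0.056 to 0.0809). Hdc is also expressed in neutrophils, whose markers moved with it. Their part in this value was not tested.

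Interferon-stimulated genes were higher: 17 of 25 rose and none fell (median 1.62). Rsad2, whose promoter is printed above, had 13.6, 4.25 and 10.6 CPM in sham and 43.7, 121, 67.3 and 39.1 CPM in radiated skin (2.89, SE 0.526, adjusted p 0.0108), without overlap. Oas2, a sensor of viral RNA, rose by 2.88 (adjusted p 0.0172), Irf7 by 2.2 (0.045) and Isg15 by 2.09 (0.0469). Ifit1 (1.48, adjusted p 0.0632) and Ifit3 (1.54, 0.0962) did not pass. The count of 17 rested on few libraries, being 7 without sham replicate 2, 5 without sham replicate 3 and 9 without radiated replicate 2. Irf7 and Isg15 missed the threshold without any 1 library but radiated replicates 1 and 4 (adjusted p 0.0562 to 0.121), and Oas2 without sham replicate 3 (0.0524).

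**Figure D3:**
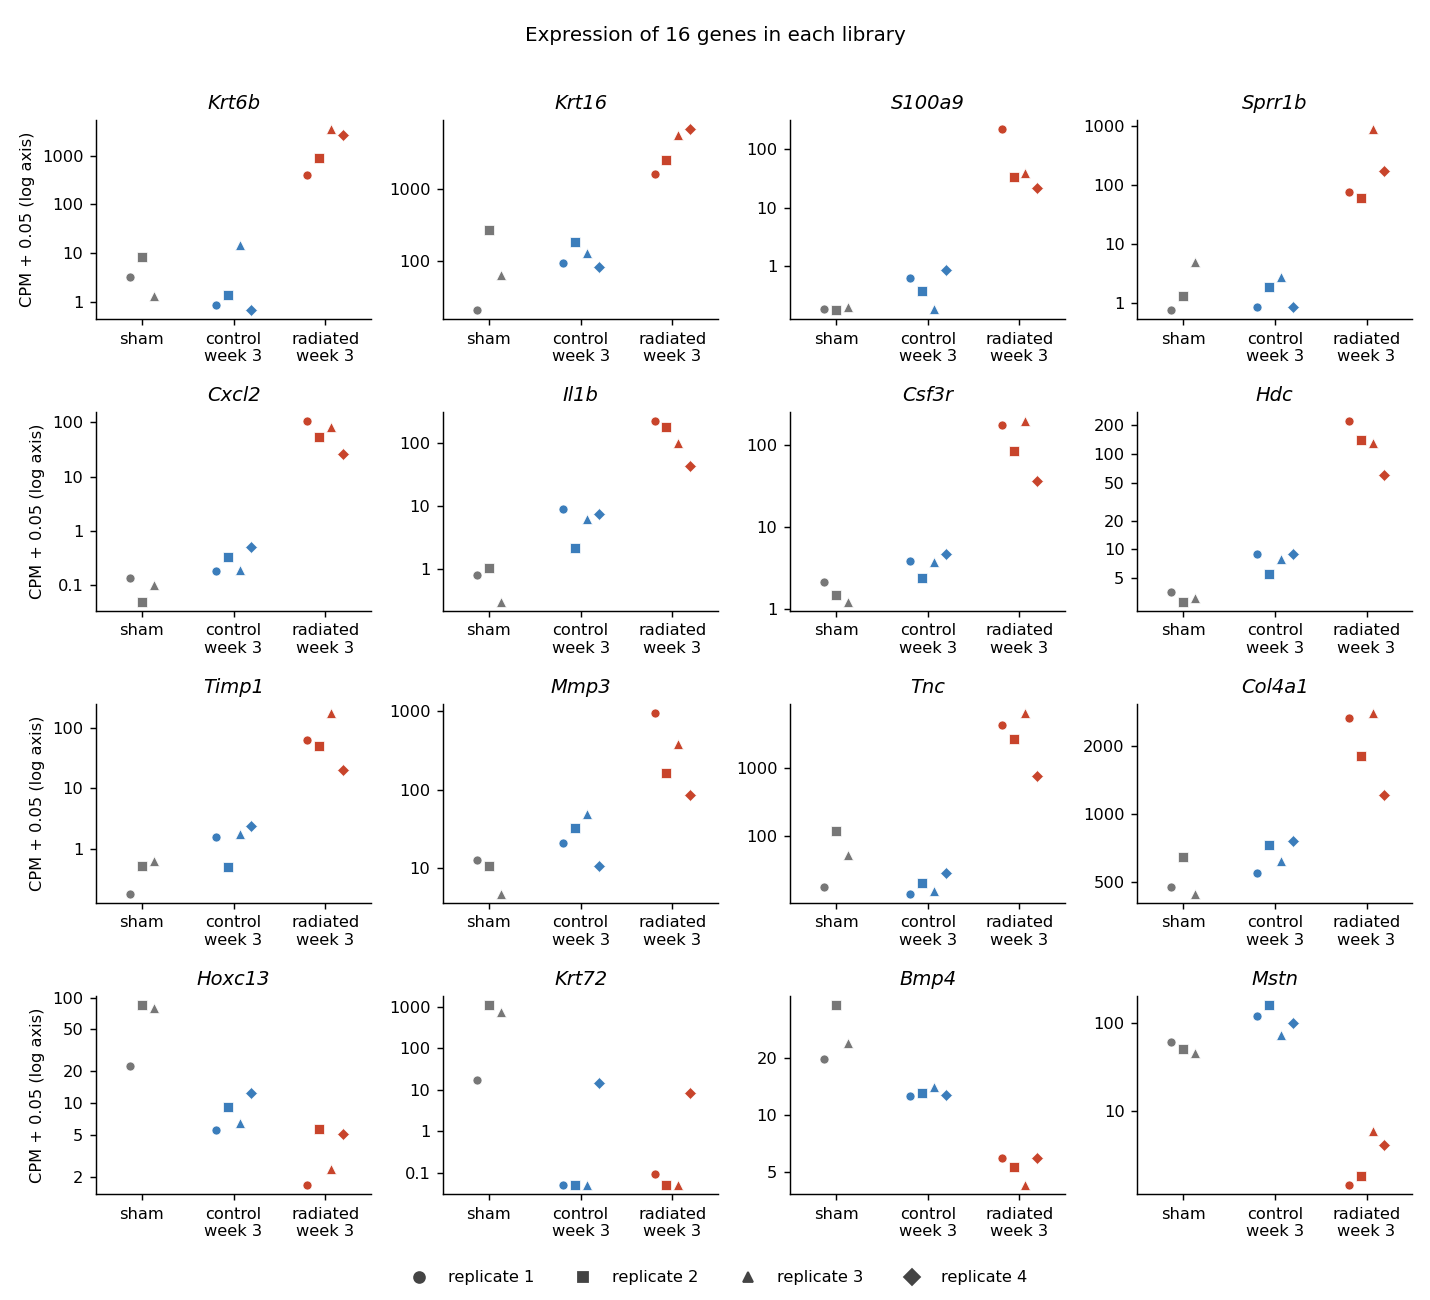
Each panel is 1 gene, each point 1 library of sham, control week 3 or radiated week 3 skin, and the y axis is CPM + 0.05 on a log scale. Krt6b, S100a9, Il1b, Csf3r and Timp1 lie higher in all 4 radiated than in all 3 sham libraries, whereas Krt72 and Hoxc13 lie lower, and Krt72 is at 0 in 2 radiated libraries but at 8.47 CPM in radiated replicate 4.

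Genes of the p53 response, which DNA damage activates, passed the test at a share near that of all genes: 4 of 24 rose, 2 fell, against 18.2% of all genes tested in either direction, and the median was 0.46 (0.27 without radiated replicate 3). Cdkn1a, the cell cycle inhibitor p21, had 316.5, 477 and 356 CPM in sham and 398, 494, 634 and 279.7 CPM in radiated skin, overlapping and not past the threshold (0.28, SE 0.294, adjusted p 0.554). Mdm2, the p53 inhibitor, had 57.1, 76.7 and 66.5 CPM in sham and 127, 146, 108 and 79.7 CPM in radiated skin (0.83, SE 0.232, adjusted p 0.0393). Its groups did not overlap, but its adjusted p was between 0.0542 and 0.119 when any library other than radiated replicate 4 was left out. Pmaip1, which promotes apoptosis, had 10.5, 13.3 and 15.5 CPM in sham and 44.6, 47.8, 42.6 and 44.0 CPM in radiated skin, with little spread in either group (1.82, SE 0.19, adjusted p 0.00454). Bax (1.25, adjusted p 0.0178) and the death receptor Tnfrsf10b (1.08, 0.00961) rose, and Trp53inp1 (-1.21, 0.018) and Sesn1 (-1.13, 0.00836) fell. Only 2 rose and 1 fell without sham replicate 2, in which Bax (0.066) and Trp53inp1 (0.0686) missed the threshold, and Bax did so without sham replicate 1 (0.0621).

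Of 25 proliferation genes only Mcm3 passed (0.74, adjusted p 0.0484), and not without any 1 library but sham replicate 3 (0.0689 to 0.139), with total-count scaling (0.0724) or with no filter on low counts (0.0585). The median was 0.06, and -0.07 to 0.28 with 1 library left out. Mki67, a marker of cycling cells, had 216, 175 and 344 CPM in sham and 100.2, 149.8, 135 and 224 CPM in radiated skin (-0.63, SE 0.31, adjusted p 0.19). Of 10 tested genes of the senescence program 2 rose and none fell, a share near the 18.2% of all genes tested that passed in either direction. Hmga2, a chromatin protein, was among the 2 (4.03, SE 0.537, adjusted p 0.00527). Gdf15, a stress cytokine, did not pass (4.33, adjusted p 0.0709).

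Genes of the extracellular matrix were higher in radiated skin. Of 19 collagen genes 12 rose and none fell (median 1.29), as did 11 of 19 genes for collagen processing (median 1.37) and 8 of 19 matricellular and provisional matrix genes (median 1.47). Col4a1 (chr8:11198423-11312826), a chain of basement membrane collagen, had 479, 643 and 446 CPM in sham and 2639, 1802, 2787 and 1211 CPM in radiated skin (2.06, SE 0.345, adjusted p 0.009). Col3a1, a fibrillar collagen of the dermis, had 2624, 3535 and 1592 CPM in sham and 6419, 4585, 7393 and 5905 CPM in radiated skin (1.27, SE 0.341, adjusted p 0.0343). Neither overlapped between the groups, but Col3a1 missed the threshold without sham replicate 1 or 3 or radiated replicate 1, 2 or 3 (adjusted p 0.0556 to 0.0792) and in 1 fit of all 35 libraries (0.0552). Col1a1, the main dermal collagen, had 2700, 4399 and 1939 CPM in sham and 3499, 3847, 8651 and 5169 CPM in radiated skin, an overlap, and did not pass (0.85, SE 0.42, adjusted p 0.194). Lox, which cross-links collagen, rose by 2.43 (SE 0.55, adjusted p 0.0204), and the prolyl hydroxylase P3h1 by 2.18 (adjusted p 0.00939). The collagen count was 2 without sham replicate 3 and 5 without sham replicate 1 or 2, that of the processing genes 7, 4 and 5 without sham replicates 1, 2 and 3, and that of the matricellular genes 4 higher and 1 lower without sham replicate 3 and 5 without radiated replicate 2. Lox missed the threshold without sham replicate 1 or 3 (0.0632 and 0.0663).

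The matricellular increase was led by Tnc. Tnc (chr4:63959785-64047015), which encodes tenascin C of healing wounds, had 18.2, 119.7 and 53.9 CPM in sham and 4196, 2644, 6277 and 768 CPM in radiated skin (5.80, SE 0.956, adjusted p 0.00878). All radiated libraries were above all sham libraries, with replicate 4 lowest. Spp1, or osteopontin, rose by 5.08 (SE 0.671, adjusted p 0.00521) and the proteoglycan Vcan by 2.55 (adjusted p 0.00881). Postn, Ccn2 and Cilp did not pass.

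Among matrix metalloproteinases and their relatives 10 of 18 rose and 1 fell (median 2.81, and 3.75 without sham replicate 2). Mmp3, or stromelysin 1, had 12.6, 10.6 and 4.65 CPM in sham and 961, 165, 388 and 84.4 CPM in radiated skin (5.47, adjusted p 0.0095). The collagenase Mmp13 rose by 4.64 (adjusted p 0.0238), the gelatinase Mmp9 by 4.23 (0.0173), Mmp10 by 7.14 (0.0108), Mmp19 by 4.64 (0.00513) and the aggrecanase Adamts4 by 4.55 (0.00575). Of the tissue inhibitors, Timp1 (chrX:20870166-20874735) had 0.132, 0.477 and 0.568 CPM in sham and 61.9, 49.6, 176 and 19.8 CPM in radiated skin (7.66, SE 0.952, adjusted p 0.00474). Timp3, which binds to the matrix, was the member that fell, from 725, 832 and 451 CPM in sham to 117, 212, 127 and 266 CPM in radiated skin (-1.85, adjusted p 0.0118). The groups overlapped for neither inhibitor, and they moved in opposite directions. The count of 10 was 5 without sham replicate 3 and 6 without sham replicate 1, and in both Mmp13 (adjusted p 0.0648 and 0.0757) and Mmp9 (0.0605 and 0.057) missed the threshold.

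**Figure D4:**
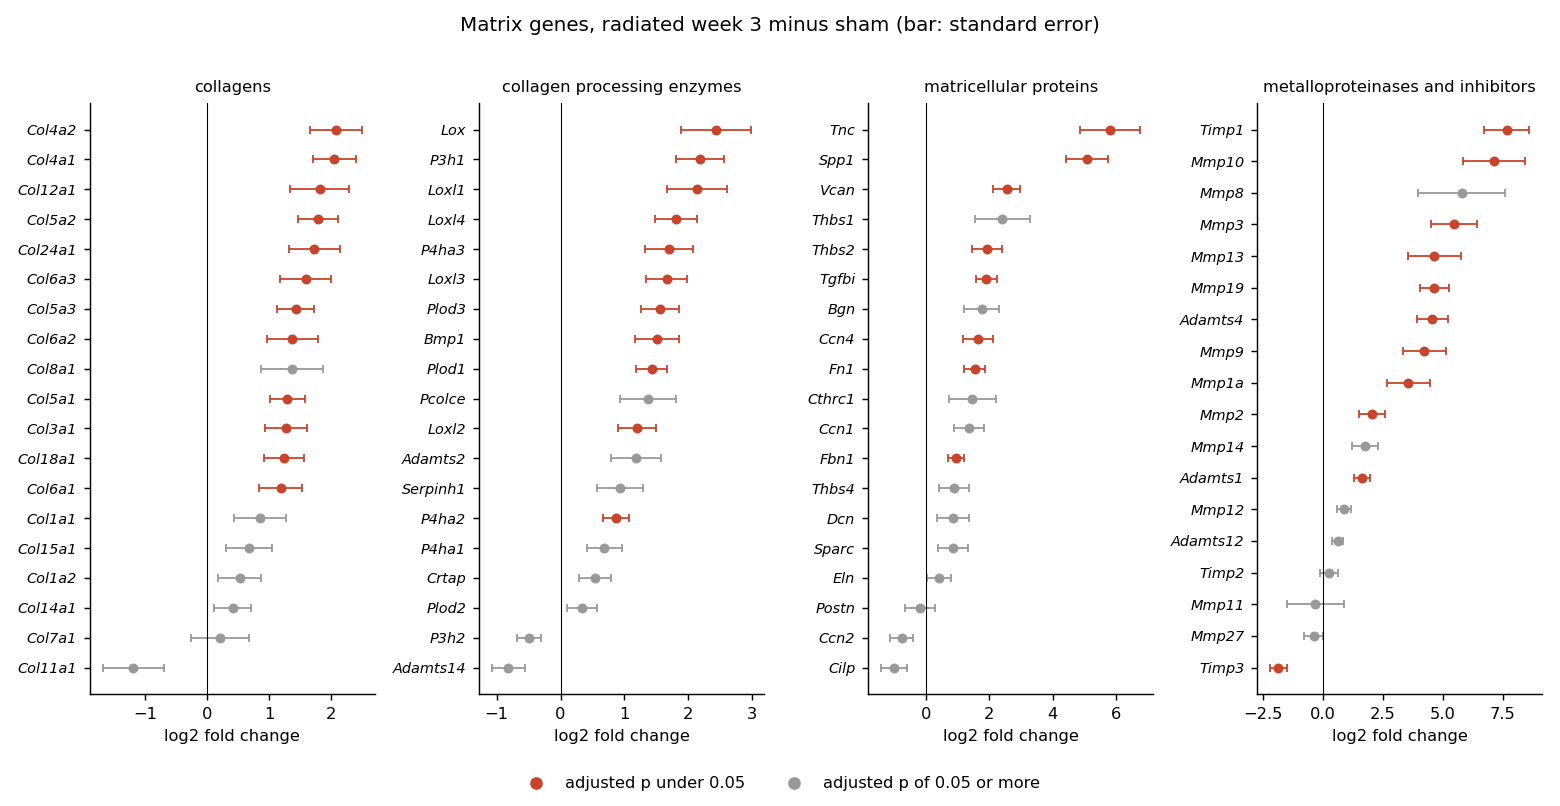
The log2 fold change of radiated week 3 over sham skin is shown on the x axis for each collagen, processing enzyme, matricellular gene and metalloproteinase or inhibitor, with its SE as a bar, in red where the gene passed the threshold and in grey where it did not. Timp1 (7.66) and Tnc (5.80) lie far to the right and Timp3 (-1.85) to the left, while Col1a1 (0.85) is grey.

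In the TGF-beta and activin family 4 of 21 genes rose and 2 fell (median 0.46, and 0.25 without sham replicate 3). Inhba, the subunit of activin A, had 33.2, 49.05 and 35.2 CPM in sham and 749, 487, 518 and 141 CPM in radiated skin (3.64, adjusted p 0.00648). Tgfb1 rose by 2.14 (SE 0.467, adjusted p 0.0182) and Lrrc32, which holds latent TGF-beta on the cell surface, by 3.41 (adjusted p 0.00946). Bmp4, a bone morphogenetic protein of the dermis and dermal papilla, had 19.6, 38.0 and 23.85 CPM in sham and 5.85, 5.22, 4.19 and 5.89 CPM in radiated skin (-2.32, SE 0.28, adjusted p 0.00462), a fall in all libraries, and Bmp2 fell too (-1.48, adjusted p 0.0325). Without radiated replicate 4 the family had 7 higher genes and 1 lower, and 1 was lower without any 1 of the others but radiated replicate 2. Tgfb1 missed the threshold without any 1 of the sham libraries (adjusted p 0.0539 to 0.0668), and Bmp2 did so without any 1 library but radiated replicate 2 (0.0507 to 0.107). Acta2, the actin of myofibroblasts and smooth muscle, did not pass (0.29, adjusted p 0.478). Vessel genes were higher, with 12 of 21 up and none down (median 1.54). The adhesion molecule Selp, which slows leukocytes on the vessel wall, had 5.39, 5.07 and 2.58 CPM in sham and 85.3, 31.9, 92.4 and 31.4 CPM in radiated skin (3.83, SE 0.538, adjusted p 0.00573). Sele (3.35, adjusted p 0.00566), Vcam1 (2.76, 0.00991), Icam1 (1.71, 0.00832) and the pan-endothelial Pecam1 (1.5, 0.0252) rose as well. The vessel count was 6 without sham replicate 2 or 3, and Pecam1 missed the threshold without any 1 of the sham libraries or radiated replicate 1 (0.0505 to 0.0838).

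Genes of the growing hair were lower, and those of the hair shaft and inner root sheath had the lowest medians of the lists examined. Of 19 hair shaft genes 17 fell (median -6.12, and -7.93 without radiated replicate 4), of 13 inner root sheath genes 6 fell (median -6.10, and -10.43 without radiated replicate 4), and of 24 follicle stem cell and signalling genes 13 fell and 2 rose (median -1.63). Krt72 (chr15:101776172-101786460), a keratin of the inner root sheath, had 16.8, 1122 and 733.5 CPM in sham and 0.0457, 0, 0 and 8.47 CPM in radiated skin (-8.15, SE 2.08, adjusted p 0.0294). Krt33a, a keratin of the hair shaft, had 19.8, 189.5 and 240.0 CPM in sham and 0, 0, 0 and 2.99 CPM in radiated skin (-7.61, SE 1.57, adjusted p 0.0155). For both, sham replicate 1 was the lowest sham library and radiated replicate 4 the only clearly positive radiated one. Krt71, another keratin of the inner root sheath, showed the same spread, with 499.6, 4966 and 5146 CPM in sham and 0.274, 1.96, 0 and 196 CPM in radiated skin. Krt71 did not pass (-6.10, adjusted p 0.101) unless radiated replicate 4 was left out (-12.20, adjusted p 0.00313). Without radiated replicate 4, Krt72 was at -14.89 and Krt33a at -14.68, fitted values that depend on the prior count because the other radiated libraries held almost no counts. Krt72 missed the threshold without sham replicate 2 or 3 or radiated replicate 1, 2 or 3 (adjusted p 0.0564 to 0.0771), and Krt33a without sham replicate 2 (0.0505).

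Hoxc13, the factor that controls hair keratin genes, had 22.2, 85.6 and 79.0 CPM in sham and 1.60, 5.55, 2.32 and 5.02 CPM in radiated skin (-4.06, adjusted p 0.00584), a fall in every library. S100a3, a calcium-binding protein of the hair cuticle, fell by 6.02 on the log2 scale (adjusted p 0.009). Lef1, the Wnt-responsive factor of the hair matrix, had 50.1, 54.6 and 204 CPM in sham and 10.8, 14.6, 15.2 and 19.3 CPM in radiated skin (-2.71, SE 0.483, adjusted p 0.0102), or -1.78 without sham replicate 3, the highest sham library. The stem cell receptor Lgr5 (-2.54, adjusted p 0.017), the signal Shh (-3.09, 0.0296) and the receptor Edar (-3.71, 0.009) were lower as well. The members that rose were Fgf7 (2.40, adjusted p 0.0101), a fibroblast growth factor for keratinocytes, and Alpl (3.09, 0.0157), an enzyme found in the dermal papilla and in other cells. Among genes past the threshold, at 5 CPM or more and without overlap, the 12 with the largest decrease, at most 2 for the same leading letters, were Krt72, Krt33a, Krtap22-2, Krtap6-2, Tchhl1, Prr9, Gprc5d, Crnn, Tgm6, A030005K14Rik, Gm10228 and Gm10229. Of the melanocyte genes Oca2 (-2.74, adjusted p 0.0459) and Slc45a2 (-2.67, 0.0391), both of pigment synthesis, fell among 12 (median -1.81, and -0.7 without sham replicate 3), and neither pass held without sham replicate 1 or 3 or radiated replicate 1, 2 or 3 (0.0569 to 0.214). Slc45a2 also missed the threshold in 1 fit of all 35 libraries (0.122), and Oca2 without sham replicate 2 (0.0619) and with total-count scaling (0.0509). The hair shaft count was 7 without sham replicate 2 and 9 without sham replicate 3, that of the inner root sheath 0 without sham replicate 2, 2 without sham replicate 3 or radiated replicate 2 or 3, and 11 lower with 1 higher without radiated replicate 4, and that of the follicle list 7 lower and 1 higher without sham replicate 2 and 10 lower and 1 higher without sham replicate 3. Shh missed the threshold without any 1 library but radiated replicates 3 and 4 (adjusted p 0.0564 to 0.103), Lgr5 without sham replicate 2 (0.065), Alpl without sham replicate 2 or 3 (0.065 and 0.0588), Krtap6-2 without sham replicate 2 or 3 (0.0566 and 0.051), Prr9 without sham replicate 2 or 3 or radiated replicate 1, 2 or 3 (0.0571 to 0.0827) and Tchhl1, Crnn and Gm10228 without sham replicate 2 (0.054, 0.055 and 0.0538).

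Sebaceous gland genes were lower in part, with 5 of 18 down, 1 up and a median of -0.91. Scd1, the desaturase of sebum lipids, had 2657, 1923 and 1182 CPM in sham and 673, 960.3, 652 and 955 CPM in radiated skin (-1.20, adjusted p 0.0306), and its relative Scd3 fell by 3.24 (SE 0.785, adjusted p 0.025). No sebaceous gene passed without sham replicate 2, 1 to 3 fell without sham replicate 1 or radiated replicate 1, 2 or 3, and none rose without any 1 library but radiated replicate 4. Scd1 missed the threshold without sham replicate 1 or 2 or radiated replicate 1, 2 or 3 (adjusted p 0.0599 to 0.104), and Scd3 without sham replicate 1 or 2 or radiated replicate 1 (0.054 to 0.0757). None of 17 adipocyte genes passed, and Adipoq had 33.9, 56.7 and 25.9 CPM in sham and 19.5, 24.9, 30.3 and 24.9 CPM in radiated skin (-0.60, adjusted p 0.184).

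Mstn (chr1:53061640-53068079), the muscle-derived inhibitor of muscle growth known as myostatin, had 61.1, 50.2 and 45.6 CPM in sham and 1.37, 1.77, 5.94 and 4.005 CPM in radiated skin (-3.95, SE 0.486, adjusted p 0.00472). All radiated libraries were far below all sham libraries. Of the 20 structural and metabolic muscle genes 2 fell, Mylpf (-1.40, adjusted p 0.037) and Mb (-1.24, 0.024), with a median of -1.0, or -0.51 without sham replicate 1. None fell without sham replicate 1 or radiated replicate 2, 1 fell without sham replicate 2 or radiated replicate 1 or 4, and 5 fell without radiated replicate 3. Mb missed the threshold without sham replicate 1 or 2 or radiated replicate 2 or 3 (adjusted p 0.0553 to 0.0932). Mylpf missed the threshold without sham replicate 1 or 2 or radiated replicate 1, 2 or 4 (adjusted p 0.0506 to 0.155). The summed muscle markers overlapped between the groups, as given above. The mean log2 CPM of the 20 muscle genes was 9.85, 8.57 and 9.11 in sham and 8.37, 8.24, 8.84 and 7.6 in radiated skin, overlapping in part, and the part of muscle amount in the Mstn value was not tested.

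Smaller groups of genes are given by their values. Of all genes tested 18.2% passed in either direction, and the Schwann cell and myofibroblast lists below were near that share. Of 12 genes of the NRF2 oxidative stress response 4 rose and 2 fell, and Gsta4, which detoxifies lipid peroxidation products, had 4.41, 4.12 and 4.285 CPM in sham and 53.8, 79.6, 304 and 155 CPM in radiated skin (5.16, SE 0.649, adjusted p 0.00477). Only 2 rose and none fell without sham replicate 2, none fell without radiated replicate 1, 2 or 4, and 1 fell without any 1 of the remaining libraries. Of 13 immediate early genes 4 rose, among them Fosl1, an AP-1 subunit, which had 1.94, 2.47 and 0.981 CPM in sham and 58.5, 67.3, 69.5 and 18.1 CPM in radiated skin (4.92, adjusted p 0.00462), 2 rose without sham replicate 3 or radiated replicate 2, and 5 rose and 2 fell without radiated replicate 4. Of 15 clock genes 3 fell and 1 rose, and the clock output gene Hlf had 65.9, 36.9 and 47.4 CPM in sham and 3.57, 6.25, 4.23 and 12.15 CPM in radiated skin (-2.89, SE 0.434, adjusted p 0.00673). The labels give no hour of collection, and there were 5 lower clock genes without radiated replicate 4 and 2 without any 1 of the other libraries. The higher gene missed the threshold without any 1 of the sham libraries or radiated replicate 1 or 3. Among 15 Schwann cell and nerve genes 1 rose and 2 fell, S100b (-1.51, adjusted p 0.00889) and Cdh19 (-1.28, 0.0456), with a median of -0.14 that turned to 0.4 without sham replicate 1. Of 10 myofibroblast and pericyte genes 1 rose and 1 fell, Pdgfrb (1.98) and Lrrc15 (-4.36, adjusted p 0.0191), and none of 5 red blood cell genes passed. Cdh19 missed the threshold without any 1 library but sham replicate 3 and radiated replicate 1 (0.0774 to 0.194), Lrrc15 without sham replicate 2 or 3 or radiated replicate 3 (0.0513 to 0.0666) and Pdgfrb without sham replicate 1 or 3 or radiated replicate 1 (0.0502 to 0.0929).

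Most genes encoded by the mitochondrial genome were lower, and so was a minority of the genes of cytosolic ribosomal proteins, in lists that were chosen after their values had been seen. Of 13 mitochondrial genes 11 fell (median -0.95), and of 78 tested ribosomal protein genes 12 fell and none rose (median -0.33). The ATP synthase subunit mt-Atp6 had 2258, 1999 and 929 CPM in sham and 482, 492, 568 and 371 CPM in radiated skin (-1.81, SE 0.324, adjusted p 0.0103), with no overlap. The cytochrome oxidase subunit mt-Co1 was at -0.95 (adjusted p 0.038) and missed the threshold without any 1 library but sham replicate 3 (0.0586 to 0.135). None of 19 nuclear genes of the same respiratory complexes passed (median -0.18). Rps14, a protein of the small ribosomal subunit, was at -1.03 (adjusted p 0.0253). The mitochondrial count was 2 without sham replicate 1 or 2, 5, 3 and 6 without radiated replicates 1, 2 and 3, and the ribosomal count 0 without sham replicate 1 or 2, 5 without radiated replicate 1 and 2 without radiated replicate 2, and Rps14 missed the threshold without sham replicate 1 or 2 or radiated replicate 2 (0.0699 to 0.0842). Muscle is rich in mitochondrial transcripts, and the part of its varying amount in these values was not tested.

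Control skin of week 3 was also compared with radiated skin and with sham skin. In radiated against control skin of week 3, 4805 of 17653 tested genes (27.2%) passed, 13.6% of all tested in each direction. This fit did not use the probable pairing by mouse, and 3721 passed with the replicate number as a block. Values against control skin below come from the unpaired fit unless the block is named. Scaling by total counts alone moved the median of all genes by 0.236 on the log2 scale and gave 4054 higher and 1270 lower genes. In control week 3 against sham skin, 2036 of 17907 (11.4%) passed, 5.18% higher and 6.19% lower. The total of 2036 was 704 without sham replicate 2, 629 without sham replicate 3, and 943, 792, 739 and 1348 without control replicates 1 to 4. The balance turned in several of these fits, with 360 higher and 344 lower without sham replicate 2, 339 and 290 without sham replicate 3, and 513 and 430, 431 and 361, and 424 and 315 without control replicates 1, 2 and 3. DESeq2 gave 1864 higher and 1705 lower. Total-count scaling moved its median by -0.166 and gave 571 higher and 1951 lower genes. These comparisons share libraries with the one above, so their values are given side by side. Of 18 tested wound keratins and alarmins 16 were higher in radiated than in control skin (median 5.50), and in control against sham skin none of 13 were higher and 2 were lower (median -0.48). Krt6b was at 8.75 against control (adjusted p 0.00257) and at 0.04 in control against sham (adjusted p 0.986). Of 14 tested neutrophil genes 11 were higher than in control skin, and none of 7 differed between control and sham. Of the collagens 7 of 19 were higher than in control skin (median 1.09). Il1b was higher than in control skin (4.49, adjusted p 0.00164), and in control skin it was itself above sham (3.15, adjusted p 0.0171), at 8.78, 2.13, 6.18 and 7.36 CPM.

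For the hair genes the picture differed. Among hair shaft genes none of 12 tested passed between radiated and control skin (median -0.48), or 2 as lower with the replicate number as a block, and 16 of 19 were lower in control than in sham skin (median -5.69). Of 24 follicle stem cell and signalling genes 7 were lower and 2 higher in radiated than in control skin (median -0.52), or 9 and 1 with the block. In control against sham skin 10 of the 24 were lower and 1 higher (median -0.91). Krt72 had 0, 0, 0 and 14.6 CPM in the control libraries, and it was lower in control than in sham skin (-7.50, adjusted p 0.0446). Lef1 was at 0.05 between radiated and control skin (adjusted p 0.94) and at -2.83 between control and sham skin (adjusted p 0.0273). Edar, by contrast, was also lower in radiated than in control skin (-2.57, adjusted p 0.00795), and so was Bmp4 (-1.27, adjusted p 0.00196). Hoxc13 was at -1.18 against control skin (adjusted p 0.0663, and 0.0205 with the replicate number as a block).

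Other groups also had different values against the control libraries. Of 16 hemidesmosome and migration genes 3 were higher and 3 lower in radiated than in control skin (median 0.11), and 7 were higher in control than in sham skin (median 0.58). Of 9 ligands of the epidermal growth factor receptor 1 was higher and 2 were lower than in control skin (median -0.44), and 4 were higher in control than in sham skin (median 0.55). Of 13 immediate early genes none was higher and 4 were lower than in control skin, and 4 were higher in control than in sham skin. In these 3 lists control skin itself thus held genes above sham skin. Of 22 macrophage genes 13 were higher than in control skin (median 1.44), and 6 were higher and 1 lower in control than in sham skin (median 1.37). Of 21 vessel genes 7 were higher than in control skin (median 0.7), and 4 were higher in control than in sham skin (median 0.58). Of 30 tested cytokines and chemokines 18 were higher and 2 lower than in control skin (median 1.81), and 3 of 23 were higher in control than in sham skin. Of 25 interferon-stimulated genes 2 were higher in radiated than in control skin (median 0.70), or 9 with the replicate number as a block, and none passed between control and sham (median 1.17). Rsad2 had 2.79, 72.2, 25.4 and 9.82 CPM in the control libraries, which spanned the sham and part of the radiated values, and radiated against control it was at 1.32 (adjusted p 0.245, and 0.0367 with the block). Ccl2 was higher in radiated than in control skin (1.76, adjusted p 0.026), but not with the block (0.0966). Of 25 proliferation genes 14 were higher in radiated than in control skin (median 1.06), and 12 were lower in control than in sham skin (median -1.25). Mki67 was at 0.84 in radiated against control skin (adjusted p 0.0912, and 0.0111 with the block). Of 20 muscle genes 17 were lower in radiated than in control skin (median -2.08) and 9 were higher in control than in sham skin (median 1.21). Mstn was at -5.09 against control skin (adjusted p 0.00073) and at 1.12 in control against sham skin (adjusted p 0.0284). All 13 mitochondrial genes were lower than in control skin (median -1.64), or 12 with the block, and none differed between control and sham.

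**Figure D5:**
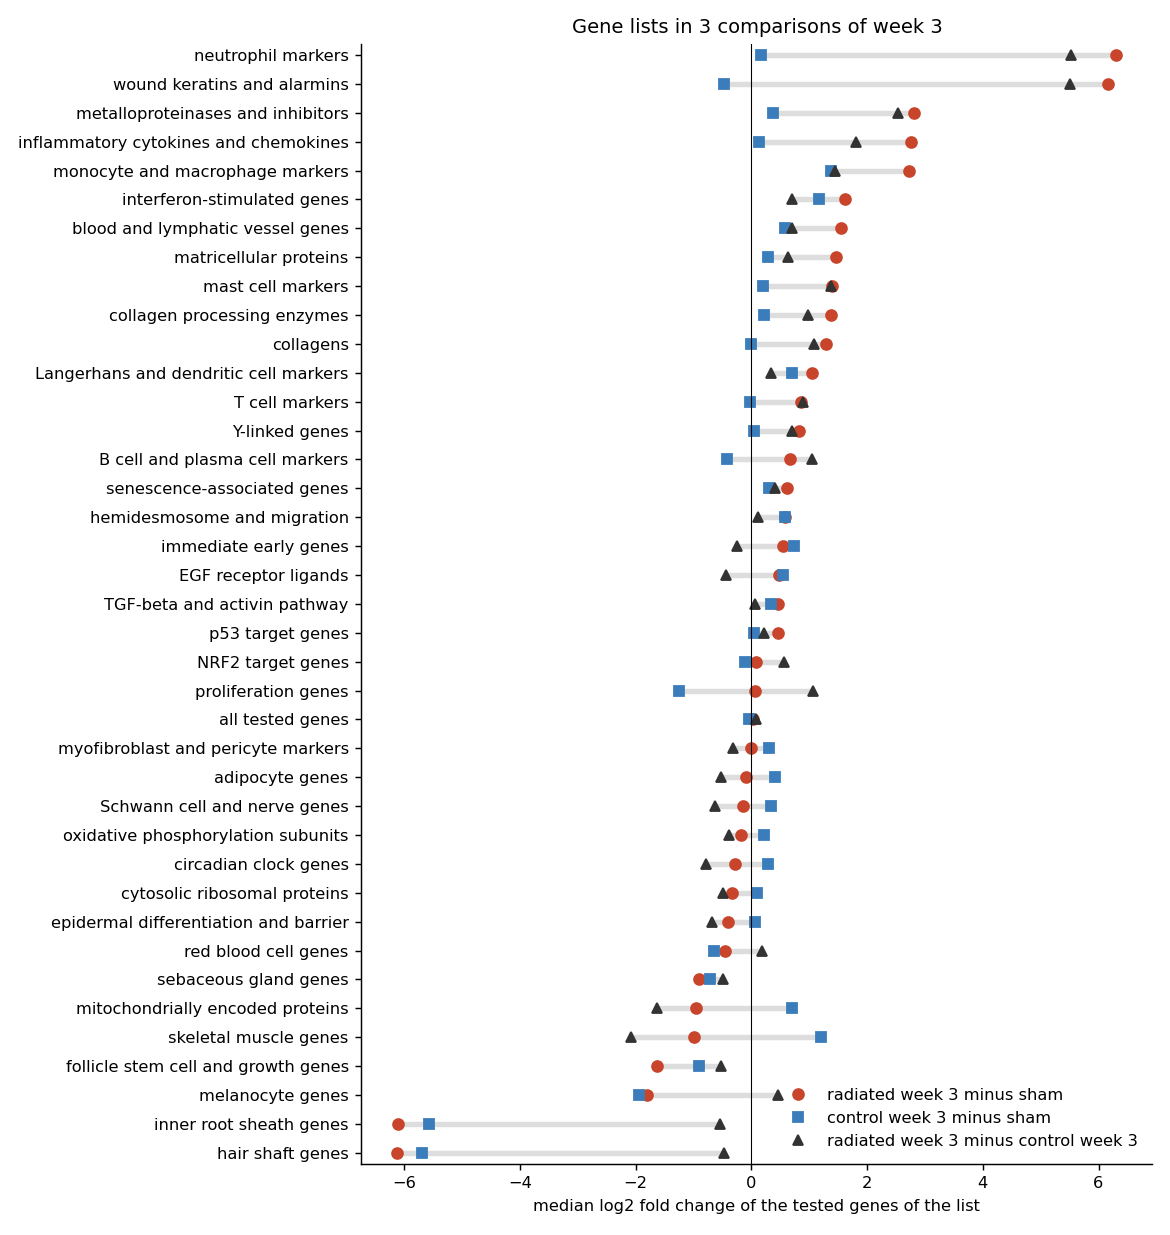
Each gene list has its median log2 fold change on the x axis for radiated over sham, control over sham and radiated over control skin of week 3. The wound list lies at 6.16, -0.48 and 5.50, and the hair shaft list at -6.12, -5.69 and -0.48.

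Between week 3 and week 4 of radiated skin 1 of 17975 tested genes (0.00556%) passed, Agtr2, a receptor of angiotensin II, which had 0.137, 0.0466, 0.229 and 0.138 CPM at week 3 and 2.82, 2.405, 2.39 and 2.19 CPM at week 4 (4.08, SE 0.403, adjusted p 0.0407). Below an unadjusted p of 0.05 there were 2238 genes, and DESeq2 called 493. Leaving out radiated week 3 replicate 4 gave 58 genes, and leaving out any other library gave 0. Krt6b had a mean of 1879 CPM at week 3 and 2547 CPM at week 4 (log2 difference 0.45, SE 0.558, adjusted p 0.783). Il1b had 133.5 and 81.4 CPM (-0.71, SE 0.469, adjusted p 0.568). Col1a1 had 5291 CPM (SD 2353, n = 4) and 14730 CPM (SD 2709, n = 4), with every week 4 library above every week 3 library, and did not pass (1.49, SE 0.299, adjusted p 0.177 in edgeR's quasi-likelihood test).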

How the data were processed

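RNA from skin biopsies was sequenced, and the authors deposited 1 table of estimated counts per gene for 35 libraries. Adapters were trimmed with Trim Galore 0.6.7 and reads assigned with kallisto 0.46.2 on mm10, per the submitters' processing notes, so reads of near-identical genes are split by estimation. The labels' extract protocol also names DESeq2. Of the deposited values 29.54 to 32.51% per library were not whole, and they were rounded to whole numbers. Groups came from the labels. No 2 libraries of a group were alike within sampling noise (lowest reduced chi-square of a pair 26.8).

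Genes were filtered with filterByExpr, scaled by TMM and tested in edgeR 4.0.16 (R 4.3.3) with glmQLFit and glmQLFTest, each comparison on its own 7 or 8 libraries, with Benjamini-Hochberg adjustment over all genes tested and a threshold of 0.05. CPM are relative to library sizes scaled by TMM over all 35 libraries. Alternatives were DESeq2 1.42.0, other scalings and filters, 1 fit of all 35 libraries, a replicate block and leaving out each library. On data simulated from these libraries for radiated week 3 against sham (18220 genes, 50 changed per fold), the test recovered 12% of 2-fold, 82% of 4-fold, 96% of 8-fold and 96% of 16-fold changes, and 7.14% of its calls were false. The changed genes were all at 5 CPM or more and far fewer than those that passed in the real data. These rates hold for that setting only. Counting intervals cover counting error only.

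The named genes were taken among those past the threshold at 5 CPM or more with no overlap between groups. In each direction they are the 12 with the largest fold, with at most 2 of the same leading letters, and the 6 with the largest difference in level. Added to these were 10 set genes and members of 36 lists (614 of 615 genes found, 1 not analysed here). Some list members are not reported here. The members and lists were chosen with earlier results of these data known, and the lists of mitochondrial and ribosomal genes after their values were seen. Coordinates are from GENCODE on GRCm38.

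Control and radiated skin of week 3 were taken to come from the same mice, because 35 samples came from 19 mice. Deviations of same-numbered libraries correlated with a mean r of 0.06 (-0.06 to 0.23), against -0.02 for other pairs. Sham and radiated numbers belong to different mice.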

Additional observations from a re-analysis of the deposited data

Results flagged for a closer look

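Of 81 groups of 4 radiated week 3 values examined (43 named genes and 38 gene lists), 12 had 1 library apart from the other 3 by more than Dixon's 95% critical value. The chance rate of about 1 in 20 holds for independent values and cannot be set against this number. Many of these genes move together, and Krt33a held no count outside the library apart. For 9 of the named hair and epidermal genes this library was radiated replicate 4, which stood above the others, and the share of the range taken by the gap was 0.91 for Krt72, 1.0 for Gm10229, Krtap22-2, A030005K14Rik, Krt33a, Krtap6-2 and Gm10228, 0.871 for Crnn and 0.854 for Gprc5d. The same library stood above the others in the mean of the hair shaft genes (share 0.92, mean log2 CPM 2.46 against -1.03 to -0.75) and below them in the mean of the inflammatory cytokines and chemokines (share 0.914, 2.47 against 3.43 to 3.52).

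Radiated replicate 3 stood below the others in the mean of the 4 Y-linked genes (share 0.911, mean log2 CPM 1.78 against 2.6 to 2.68), in mice labelled female, and sham libraries had 1.53 to 1.89. Of these genes Uty passed (0.97, adjusted p 0.0204 in edgeR's quasi-likelihood test), but not without sham replicate 1 (0.0632) or sham replicate 2 (0.0827), and estimated counts may share reads between it and its X-linked relative. Agtr2 differed between week 3 and week 4 of radiated skin by 4.08 on the log2 scale (adjusted p 0.0407), and no gene passed when a library other than radiated week 3 replicate 4 was left out (0 genes, against 58 without that one).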

How the results depend on the processing

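The 3308 genes of radiated against sham skin became 6402 in 1 fit of all 35 libraries, which pools the spread, with 2912 higher and 3490 lower (45.5% higher against 57.3%), and ranged from 1134 to 3965 when 1 library was left out. DESeq2 gave 4861. Radiated against control skin stayed within 1.5 times of 4805. Control against sham skin, with 2036, gave 3569 with DESeq2 and 629 to 2438 with a library left out. Week 4 against week 3, with 1, gave 493 with DESeq2, 70 in the fit of all libraries and 0 to 58 with a library left out. With the replicate number as a block, radiated against sham gave 3009 genes, radiated against control 3721, control against sham 477 and week 4 against week 3 gave 0; outside radiated against control skin these numbers join different mice, and mean correlations of same-numbered libraries were -0.05, -0.03 and 0.03. Beside the values printed with the results, the block changed no other call of a single gene named for radiated against control skin. It moved the number of higher genes there from 16 to 14 for the wound list, from 18 to 16 for cytokines, from 13 to 14 for macrophages, from 7 to 5 for vessels, from 7 to 9 for collagens and from 14 to 17 for proliferation, that of lower muscle genes from 17 to 18, and that of hemidesmosome genes from 3 to 2 in each direction. Of the 43 named genes, 18 lost their call without sham replicate 2, 11 without sham replicate 1 or 3, 7 to 9 without radiated replicate 1, 2 or 3, and 1 without radiated replicate 4. With the block Col3a1 (adjusted p 0.0968), mt-Co1 (0.128) and mt-Co2 (0.0642) lost it, and in the fit of all libraries Col3a1 (0.0552). The call of mt-Co2 was also lost without sham replicate 1 or 2 or radiated replicate 2 (0.0591 to 0.0702). None changed direction under any alternative run, and Krt71 passed with DESeq2 (adjusted p 0.0484) and with the block (0.00393). Of the other genes described, the block also ended the calls of Tslp (0.0707), Cma1 (0.0727), Tpsb2 (0.0704), Isg15 (0.0733), Irf7 (0.0536), Mcm3 (0.0887), Shh (0.06), Oca2 (0.0775), Mylpf (0.0936) and Cdh19 (0.0887). Over all alternatives run for radiated against sham skin, 0 to 10 muscle, 0 to 35 ribosomal, 0 to 7 melanocyte and 0 to 9 sebaceous genes passed as lower. The cause of these changes was not tested. With 3 sham libraries, a change of 2-fold was found in 12% of simulated cases. There only 50 genes changed at each fold, far fewer in all than passed in the real data. The share of small changes found in the real data was therefore not tested.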
